A study of Mus musculus with 16 samples.

Results

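The nuclear-encoded subunits of the mitochondrial respiratory chain and of ATP synthase were examined in pituitary glands of mouse embryos with and without the transcription factor Insm1. Members were taken by name, as every annotated gene whose symbol starts with Nduf, Uqcr, Cox4, Cox5, Cox6, Cox7, Cox8 or Atp5 and that was measured above background by some probe (detection p-value below 0.01) in no fewer than 6 of 16 samples. The rule used no difference between genotypes. Of 82 such symbols on the array, 74 met it, among 9682 genes tested. They comprised 33 genes of complex I, among them the transcribed pseudogene Ndufs5-ps, 6 of complex III, 15 of complex IV, 15 of ATP synthase and 5 assembly factors of complex I named with the Nduf stem.

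The gland was taken at embryonic day 17.5. The 6 mutant samples carried the genotype Insm1 -/- and the 10 control samples the genotype Insm1 +/-, so every control also had a mutant copy of Insm1, and no wild-type sample was analysed here. All 16 were of the strain background C57/BL6;129Ola mixed. The labels number the samples separately and do not say whether glands were pooled; the p-values therefore reflect differences among the samples, which may be technical. Total RNA was hybridised to Illumina bead arrays, on which each probe reads a short stretch of a transcript as a fluorescence intensity, given here as a log2 level.

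The chain passes electrons from NADH through complex I, and from succinate through complex II, to ubiquinone, on through complex III to cytochrome c, and through complex IV to oxygen. The proton gradient built on the way drives ATP synthase. Each of these complexes except complex II mixes subunits encoded in the nucleus, which are the ones described here, with others encoded in mitochondrial DNA. Several complex IV subunits exist in a widespread form and in a form used by particular tissues, such as muscle, lung or testis. In endocrine cells, ATP from this chain feeds the synthesis, packaging and release of hormone.

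The promoters of 5 members are shown as examples. Ndufa1, Ndufa8, Cox6a1 and Cox7a2 are among the 11 members called lower in mutants. Of the called members with a promoter sequence, only Ndufa8 and Cox6a1 held a match marked below, so the examples do not stand for the rest. Cox7a2 and Cox7a1 are the widespread and the muscle form of the same complex IV subunit. Each sequence is the 250 bases before the RefSeq transcription start on assembly GRCm38.p6, read 5′ to 3′ on the gene's own strand. They lie at chrX:37191239-37191488 on the minus strand for Ndufa1, chr2:36049339-36049588 minus for Ndufa8, chr5:115348959-115349208 minus for Cox6a1, chr9:79759854-79760103 minus for Cox7a2 and chr7:30183921-30184170 plus for Cox7a1. Capitals mark matches to the site of nuclear respiratory factor 1 (GCGCA, any base, GCGC), or to CCGGAAG, the core bound by ETS family factors, on either strand. Both kinds of factor are known regulators of respiratory genes.
Ndufa1: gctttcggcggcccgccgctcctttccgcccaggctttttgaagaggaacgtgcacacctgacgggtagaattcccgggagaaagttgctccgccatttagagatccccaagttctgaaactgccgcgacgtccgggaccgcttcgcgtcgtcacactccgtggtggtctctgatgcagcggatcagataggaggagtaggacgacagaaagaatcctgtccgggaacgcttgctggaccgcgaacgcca
Ndufa8: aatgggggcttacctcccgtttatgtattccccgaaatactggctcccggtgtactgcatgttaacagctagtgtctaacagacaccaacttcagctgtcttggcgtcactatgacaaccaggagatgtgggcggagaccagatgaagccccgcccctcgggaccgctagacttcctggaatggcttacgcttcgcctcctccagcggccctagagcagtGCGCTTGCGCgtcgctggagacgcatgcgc
Cox6a1: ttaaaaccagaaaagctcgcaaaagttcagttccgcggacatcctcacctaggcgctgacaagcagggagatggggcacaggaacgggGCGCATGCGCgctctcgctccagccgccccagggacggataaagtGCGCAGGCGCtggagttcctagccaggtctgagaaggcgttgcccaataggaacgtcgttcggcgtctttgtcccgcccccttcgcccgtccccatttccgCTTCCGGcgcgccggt
Cox7a2: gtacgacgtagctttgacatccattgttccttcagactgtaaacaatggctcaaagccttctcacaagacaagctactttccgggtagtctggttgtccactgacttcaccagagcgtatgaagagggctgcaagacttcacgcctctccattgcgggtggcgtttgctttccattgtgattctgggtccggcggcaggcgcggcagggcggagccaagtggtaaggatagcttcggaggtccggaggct
Cox7a1: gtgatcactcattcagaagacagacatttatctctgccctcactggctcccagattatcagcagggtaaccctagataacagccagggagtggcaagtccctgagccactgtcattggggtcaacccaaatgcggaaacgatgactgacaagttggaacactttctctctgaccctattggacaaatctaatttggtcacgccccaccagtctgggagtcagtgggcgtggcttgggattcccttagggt

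A promoter window was given for 64 of the 74 members. The nuclear respiratory factor 1 letters were found in 9 of them, which is 14.1%, against 4.23% of 27025 genes with a window. The ETS letters were found in 12, which is 18.8%, against 7.83% of all genes. Either was present in 19 members (29.7%, against 11.3% of all genes), and both in Atp5h and Cox6a1. In Cox6a1 the matches began 162 and 117 bases before the start for nuclear respiratory factor 1 and 16 bases before it for ETS, and in Ndufa8 the match began 30 bases before the start. The YY1 letters ATGGCGGC and the oestrogen-related receptor letters TCAAGGTCA were each found in 1 member, and the MEF2 letters CTATT followed by TATAG, a muscle motif, in 0. Of the 9 members called different between genotypes that had a window, Cox6a1 and Ndufa8 held the nuclear respiratory factor 1 letters and Cox6a1 alone the ETS letters.

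Raw array medians ranged from 96.5 to 132 intensity units, and 12892 to 14156 probes per array were above background. The arrays were taken to lie on a pair of slides. This grouping was inferred from the number that begins each array's sample name, as the sample titles and names do not mention a slide. By it, 4 mutants fell on slide 1 beside 4 controls, and 2 mutants fell on slide 2 beside 6 controls. The Insm1 probe itself read higher in mutants, by 0.36 on the log2 scale (adjusted p = 0.0134, limma). Where this probe lies relative to the mutated part of the gene was not stated, so it does not check the labels. Markers of several cell types differed between genotypes. Of 11 hormone cell genes 10 were above background, as were 14 of 18 skeletal muscle genes. All 10 of the former were called lower in mutants (their summed level was 8745 to 15438 in mutants and 80244 to 118446 in controls), and 13 of the 14 muscle genes were called higher (16338 to 24461, against 1502 to 11808). The control with the highest muscle sum was control 10. Macrophage genes were higher for 5 of 5 tested (1442 to 1787, against 1044 to 1376), and pituitary progenitor genes for 5 of 7 (6717 to 7987, against 4773 to 6141); neither sum overlapped between genotypes. In whole-gland RNA, fewer cells of a type and less RNA per cell cannot be told apart, and the part of any of these marker shifts in the results below was not tested.

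The respiratory chain transcripts were close to their control levels in the mutants, with a small number of moderate falls. Of the 74 members, 11 were called lower and 1 higher at an adjusted p under 0.05 in limma's fit over all 13813 probes above background. That is 14.9% called lower, against 14.0% of all genes tested, while 15.9% of all genes were called higher. In either direction 16.2% of members were called, against 29.9% of all genes and 23.9% of the 582 genes at least as bright as the median member, of which 10.7% were called lower. At an unadjusted p under 0.05 there were 22 members, against 40.2% of all genes. The share of members called lower was thus near the background, and the share called higher was below it; neither difference was tested.

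Changes were small but leaned downward. Among members, 53 changes were below 0 and 21 above, so 71.6% were below 0, against 44.6% of all genes. The median change, mutant minus control, was -0.084 on the log2 scale over members and 0.033 over all genes. It was -0.0044 over the 582 genes at least as bright as the median member. That bright set leaves out genes as dim as the dimmer members, so it does not match the members in brightness. With arrays scaled by their median instead, the members' median was -0.13, against 0.020 over all genes, and 7 were called lower and 0 higher. The changes ranged from -0.55 to 0.57, and 0 members changed by 2-fold or more, against 4.26% of all genes. For 61 members (82.4%) the 95% interval of the change lay wholly within 0.5 of 0 in either direction, against 64.4% of all genes and 89.9% of that bright set. Taking each array's median deviation from the control mean over the 74 members, controls spanned -0.049 to 0.049 and mutants -0.13 to -0.0043, so the genotypes overlapped. Without control 10, 10 members were called lower and 1 higher, against 30.4% of all genes called in either direction. Of the 12 calls 10 remained, and Cox6c and Cox4i2 lost theirs.

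**Figure D1:**
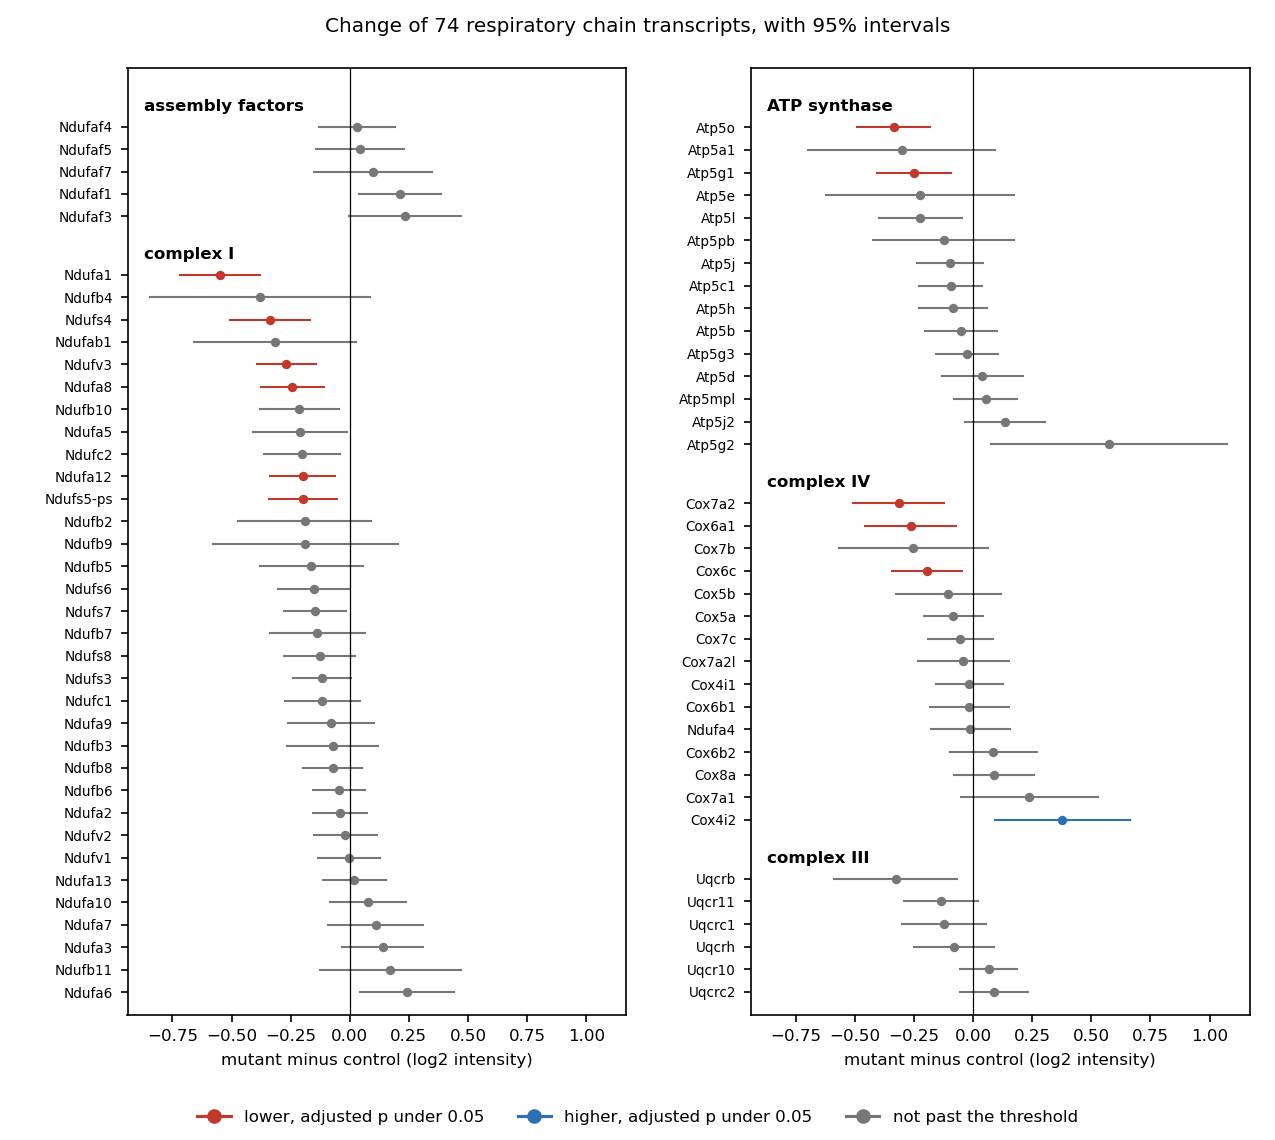
Each point is the change of a member, mutant minus control, in log2 intensity (x axis), with its 95% interval, grouped by complex and ordered by change; colour marks members called lower or higher at an adjusted p under 0.05 in limma's fit of 6 mutants against 10 controls. The points run from -0.55 for Ndufa1 to 0.57 for Atp5g2, 11 are called lower and 1, Cox4i2, is called higher.

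Complex I, the NADH dehydrogenase, had 6 of its 33 members called lower, which is 18.2%, against 14.0% of all genes; the pseudogene Ndufs5-ps is 1 of the 6. Of the 33, 27 had a change below 0 and 6 above, the median was -0.14, and 0 were called higher. By array, the median deviation of complex I members ran from -0.068 to 0.057 in controls and from -0.21 to 0.0011 in mutants, so the groups again overlapped, through mutant 5. Differences between complexes were not tested.

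The largest fall among the members was that of Ndufa1, an X-linked accessory subunit of the membrane arm that is needed to assemble complex I. Its log2 level was 13.29 at the lowest, 13.52 at the median and 13.69 at the highest in controls, and 12.79, 12.97 and 13.20 in mutants. All 6 mutants lay below all 10 controls. The change was -0.55 (SE 0.080, 95% interval -0.72 to -0.38, adjusted p = 4.42e-05, limma), which put mutants at 68.3% of the control level. It was -0.64 within slide 1 and -0.51 within slide 2, and Ndufa1 was the only member called within each slide.

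Ndufs4, an accessory subunit of the matrix arm whose loss in mice causes a fatal brain disease resembling Leigh syndrome, ran from 12.39 through a median of 12.62 to 12.79 in controls and from 11.97 through 12.31 to 12.42 in mutants. Of the mutants, 5 lay below every control. The change was -0.34 (SE 0.081, adjusted p = 0.00416, limma), and its 4 probes were all called lower, with changes from -0.45 to -0.34. Ndufv3, a small subunit beside the site that oxidises NADH, ran from 12.60 through 12.72 to 12.85 in controls and from 12.34 through 12.45 to 12.53 in mutants, with no overlap. Its change was -0.27 (SE 0.060, adjusted p = 0.00248, limma). A second Ndufv3 probe gave -0.31, also called, and the remaining, dim one gave 0.03 (adjusted p = 0.860), so its probes disagreed.

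Ndufa8, an accessory subunit on the intermembrane-space side whose promoter match is shown above, ran from 12.17 through 12.23 to 12.49 in controls and from 11.84 through 12.02 to 12.16 in mutants. The groups did not overlap, and the change was -0.24 (SE 0.064, adjusted p = 0.00771, limma), with its second probe also called. Ndufa1, Ndufv3 and Ndufa8 were the 3 members whose mutants all lay below all controls, as did 5.26% of all genes; in 0 members did all mutants lie above, as did 3.94% of all genes. The other calls in complex I were close to the threshold. Ndufa12, a matrix arm accessory subunit, had a change of -0.20 (SE 0.065, adjusted p = 0.0307, limma), with 4 mutants below every control. Ndufs5-ps, listed in the RefSeq table as a transcribed pseudogene, had a change of -0.20 (SE 0.069, adjusted p = 0.0402, limma), or -0.18 with an adjusted p of 0.0639 once the slide was a block; whether its probe also reads the parent gene was not tested.

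Members of complex I were also grouped by their place in it, after the values had been seen. Of the 9 accessory subunits of the matrix arm 3 were called lower, as were 3 of 18 in the membrane arm, counting Ndufs5-ps, and both groups had a median change of -0.15. Of the catalytic core, which carries the flavin and iron-sulphur clusters, 5 nuclear-encoded members were tested and 0 called by limma, with a median of -0.12, all 5 below 0 and 1 at an unadjusted p under 0.05, and changes from -0.15 (Ndufs7) to -0.0048 (Ndufv1). The 95% interval of Ndufv1, which binds NADH, was -0.14 to 0.13, and that of Ndufs7 was -0.28 to -0.02. At the 14.0% of all genes called lower, 5 genes are too few for a count of 0 to set the core apart, and a difference between core and accessory subunits was not tested. The largest rise in complex I was that of Ndufa6, a matrix arm accessory subunit, which ran from 11.96 through 12.16 to 12.62 in controls and from 12.21 through 12.43 to 12.64 in mutants; its change of 0.24 (SE 0.094, 95% interval 0.04 to 0.44) missed the threshold, with an adjusted p of 0.0642 by limma.

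The 5 assembly factors, chaperones that help build complex I without staying in it, had changes above 0, with a median of 0.098; 0 were called by limma and 1 had an unadjusted p under 0.05. That shared sign depended on the slide: with it as a block Ndufaf4 was at -0.015 and Ndufaf5 at -0.029, and within slide 2 Ndufaf4, Ndufaf5 and Ndufaf7 were at -0.065, -0.043 and -0.063. The largest were those of Ndufaf3 (0.23, adjusted p = 0.138, limma) and Ndufaf1 (0.21, adjusted p = 0.0640, limma), and 5 of 6 mutants lay above every control for Ndufaf1. Ndufaf5 had a change of 0.04 (adjusted p = 0.757, limma) by its brighter probe and -0.32 (adjusted p = 0.213, limma) by the other, so its direction is not settled.

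In complex III, the ubiquinol to cytochrome c step, 0 of 6 members were called, and 1 had an unadjusted p under 0.05. That was Uqcrb, a small subunit near a ubiquinone site, which ran from 11.54 through 11.80 to 12.26 in controls and from 11.17 through 11.54 to 11.83 in mutants. Of the mutants 3 lay below every control, and the change was -0.33 (SE 0.12, 95% interval -0.59 to -0.07, adjusted p = 0.0564, limma). At the other end, Uqcrc2, a large core protein that faces the matrix, ran from 12.68 through 12.85 to 13.01 in controls and from 12.75 through 12.93 to 13.07 in mutants, with a change of 0.09 (SE 0.068, 95% interval -0.06 to 0.23, adjusted p = 0.374, limma). The median change of the 6 was -0.10.

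**Figure D2:**
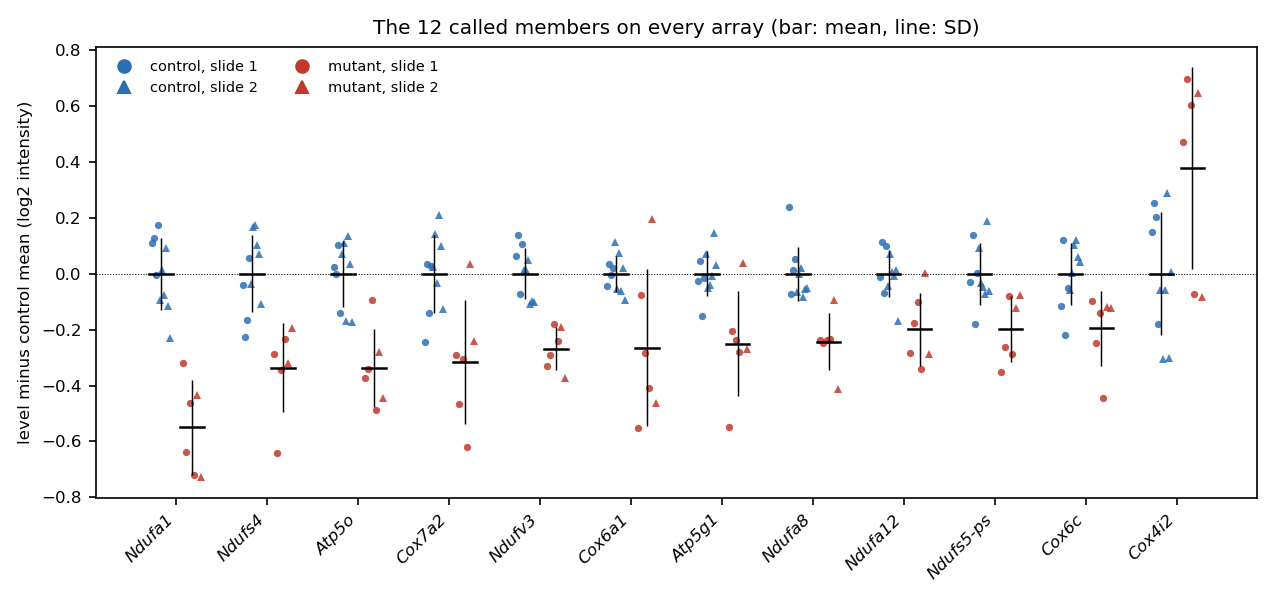
The level of each of the 12 called members on every array is plotted as log2 intensity minus the control mean (y axis), controls in blue and mutants in red, circles for slide 1 and triangles for slide 2, with the group mean as a bar and the SD as a line. For Ndufa1, Ndufv3 and Ndufa8 all 6 mutants lie below all 10 controls; for Cox4i2 4 mutants lie above all controls and the other 2 among them.

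Complex IV, cytochrome c oxidase, had 3 members called lower and 1 called higher of 15, with a median change of -0.041. That is 20% called lower, against 14.0% of all genes, and 6.67% called higher, against 15.9%. Neither difference was tested. Cox7a2, the widespread form of subunit VIIa, ran from 9.82 through 10.09 to 10.28 in controls and from 9.45 through 9.77 to 10.10 in mutants. Of the mutants 4 lay below every control, and the change was -0.31 (SE 0.091, adjusted p = 0.0151, limma), or 80.4% of the control level. Cox6a1, the widespread form of subunit VIa, ran narrowly from 13.19 through 13.29 to 13.39 in controls and widely from 12.73 through 12.93 to 13.48 in mutants. Mutant 5 held that highest value, above every control, while 4 mutants lay below every control. The change was -0.26 (SE 0.092, adjusted p = 0.0400, limma), and without mutant 5 it was -0.36 (adjusted p = 0.00150). Once the slide was a block it was -0.25 and no longer called (adjusted p = 0.0637). Cox6c, a small membrane subunit, ran from 13.21 through 13.45 to 13.55 in controls and from 12.99 through 13.30 to 13.33 in mutants, with a change of -0.20 (SE 0.071, adjusted p = 0.0484, limma); the slide as a block gave -0.17 and no call (adjusted p = 0.0805).

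The single member called higher was Cox4i2, the form of subunit IV known from lung and from cells low in oxygen. Its level was 6.61, 6.89 and 7.20 at the lowest, median and highest control, and 6.83, 7.45 and 7.61 in mutants. Mutants 1, 2, 3 and 5 lay above every control, and the other 2 below the control median. The change was 0.38 (SE 0.14, 95% interval 0.09 to 0.66, adjusted p = 0.0455, limma), or 130% of the control level, and it was 0.33 once the slide was a block (adjusted p = 0.0797), 0.32 within slide 1 and 0.35 within slide 2. Cox4i1, the widespread form of the same subunit, ran from 13.48 through 13.61 to 13.86 in controls and from 13.50 through 13.60 to 13.77 in mutants, a change of -0.02 with a 95% interval of -0.16 to 0.12 (adjusted p = 0.880, limma). Among 8 tested genes of pericytes, the cells around capillaries in which Cox4i2 is also known, Notch3, Acta2 and Mcam were called higher, by 0.55, 1.51 and 0.37, against 15.9% of all genes; that list was chosen after Cox4i2 had been seen. Its other genes were not called, with changes of 0.45 for Pdgfrb, 0.16 for Kcnj8, 0.07 for Rgs5, 0.06 for Abcc9 and -0.0059 for Cspg4. Its summed level was 3676 to 4856 in mutants and 2001 to 3737 in controls, with control 10 at 3503. Of 8 tested endothelial genes 0 were called by limma and 1 had an unadjusted p under 0.05. The part of either in the Cox4i2 result was not tested. Cox4i2 and Ndufa8 are 2 of 8 members that lie, like Insm1, on chromosome 2, and the part of that shared chromosome was not tested.

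The forms used by muscle did not show a call, although muscle markers were higher in these mutants. Cox7a1, the heart and skeletal muscle form of subunit VIIa, ran from 7.18 through 7.75 to 8.16 in controls and from 7.73 through 7.96 to 8.27 in mutants. The change was 0.24 (SE 0.14, 95% interval -0.05 to 0.53, adjusted p = 0.221, limma), and mutants overlapped controls. The probes of Cox6a2 and Cox8b, the muscle forms of subunits VIa and VIII, were not above background on any of the 16 arrays. Cox6b2, the testis form of subunit VIb, ran from 7.64 through 7.82 to 8.05 in controls and from 7.63 through 7.94 to 8.24 in mutants, a change of 0.09 (95% interval -0.10 to 0.27, adjusted p = 0.514, limma). The 3 tissue forms above background thus had changes above 0 with a median of 0.24. The 6 widespread forms had a median of -0.13 with 5 below 0, but their changes were spread. They were -0.31 for Cox7a2, -0.26 for Cox6a1, -0.25 for Cox7b, -0.02 for Cox4i1 and Cox6b1, and 0.09 for Cox8a. The median of the 6 thus falls between Cox7b and Cox4i1. Cox7b was not called (adjusted p = 0.236, limma), and its tissue form Cox7b2 was not above background. The tissue and widespread groups were drawn up after the values had been seen and were not tested against each other.

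**Figure D3:**
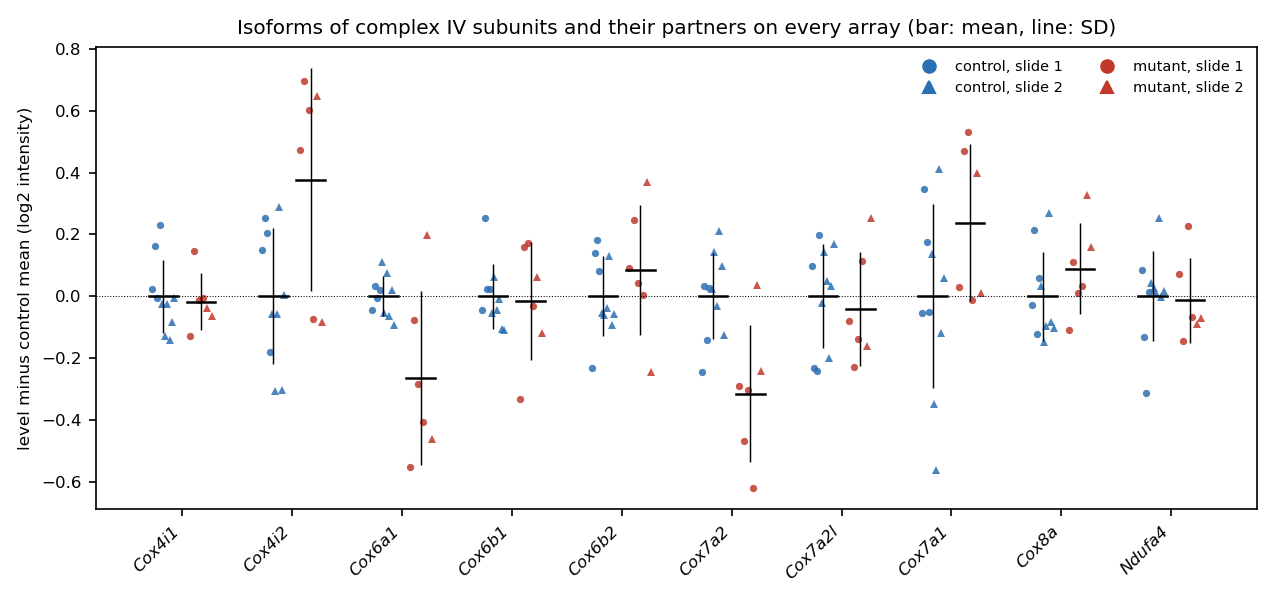
Levels of complex IV isoforms and their partners on every array, as log2 intensity minus the control mean (y axis); blue marks controls, red mutants, circles slide 1 and triangles slide 2, bars are means and lines SDs. Cox6a1 and Cox7a2 sit mostly below the controls, Cox4i2 has 4 of 6 mutants above them, and Cox4i1, Cox6b1 and Ndufa4 overlap them around 0.

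The remaining partners kept intervals that spanned 0. Cox6b1, the widespread form of subunit VIb, ran from 13.10 through 13.18 to 13.46 in controls and from 12.88 through 13.22 to 13.38 in mutants, a change of -0.02 (95% interval -0.18 to 0.15, adjusted p = 0.908, limma). Ndufa4, once counted in complex I and now placed in complex IV, ran from 12.70 through 13.03 to 13.27 in controls and from 12.87 through 12.94 to 13.24 in mutants, a change of -0.01 (-0.18 to 0.15, adjusted p = 0.928, limma). For Cox7a2l, which links complexes into supercomplexes, the change was -0.04 (-0.23 to 0.15, adjusted p = 0.785, limma), and for Cox8a, the widespread form of subunit VIII, it was 0.09 (-0.08 to 0.26, adjusted p = 0.449, limma).

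ATP synthase, the enzyme that makes ATP from the proton gradient, had 2 of 15 members called lower and 0 higher, with a median change of -0.095. That is 13.3% called lower, near the 14.0% of all genes. Atp5o, the subunit that joins the catalytic head to the peripheral stalk, ran from 7.91 through 8.11 to 8.22 in controls and from 7.59 through 7.73 to 7.99 in mutants. Of the mutants 5 lay below every control, and the change was -0.34 (SE 0.073, adjusted p = 0.00200, limma), or 79.2% of the control level. It was -0.32 within slide 1 and -0.36 within slide 2. The catalytic Atp5b, by comparison, had a change of -0.05 with a 95% interval of -0.20 to 0.10 (adjusted p = 0.654, limma).

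Atp5g1, Atp5g2 and Atp5g3 encode the same mature subunit, which forms the rotating c ring, and their 3 transcripts gave different values. Atp5g1 ran from 12.78 through 12.92 to 13.08 in controls and from 12.39 through 12.68 to 12.97 in mutants, and its change was -0.25 (SE 0.074, adjusted p = 0.0173, limma), with 5 mutants below every control. Atp5g2 ran from 8.44 through 9.38 to 10.00 in controls and from 9.09 through 10.01 to 10.66 in mutants, with 3 mutants above every control. Its change of 0.57 was the largest rise of any member, but its spread was wide (SE 0.24, 95% interval 0.08 to 1.07) and its adjusted p of 0.0814 by limma missed the threshold. It passed when the slide was a block (0.66, adjusted p = 0.0498), without control 10 (0.65, adjusted p = 0.0482) and without mutant 1 (0.74, adjusted p = 0.0227). Atp5g3 had a change of -0.03 with a 95% interval of -0.16 to 0.11 (adjusted p = 0.804, limma). Whether the 3 genes differ from each other in response was not tested.

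Some members differed more between the slides than between the genotypes. Atp5a1, the alpha subunit of the catalytic head, averaged 11.06 in controls of slide 1 and 11.76 in controls of slide 2, a difference of 0.70, and mutants differed between slides by 0.77 in the same direction. Ndufb9, a membrane arm subunit, differed by 0.65 in controls and 0.79 in mutants, Ndufb4, another, by 0.60 and 1.05, and Ndufab1, the mitochondrial acyl carrier protein, by 0.37 and 0.83. After removal of the group means, the deviations of these 4 correlated across the 16 arrays with Pearson r from 0.80 to 0.97, the highest between Atp5a1 and Ndufb9; the arrays share the slide, so this is a description. With the slide as a block the change of Atp5a1 went from -0.30 to -0.11 and that of Ndufb9 from -0.19 to -0.0012. That of Ndufb4 went from -0.38 to -0.18 and that of Ndufab1 from -0.32 to -0.18. The signs of Ndufb4, Ndufab1 and Ndufb9 differed between slides. Within slide 1 their changes were -0.37, -0.37 and -0.06, and within slide 2 they were 0.08, 0.09 and 0.08. None of the 4 was called in the pooled fit.

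**Figure D4:**
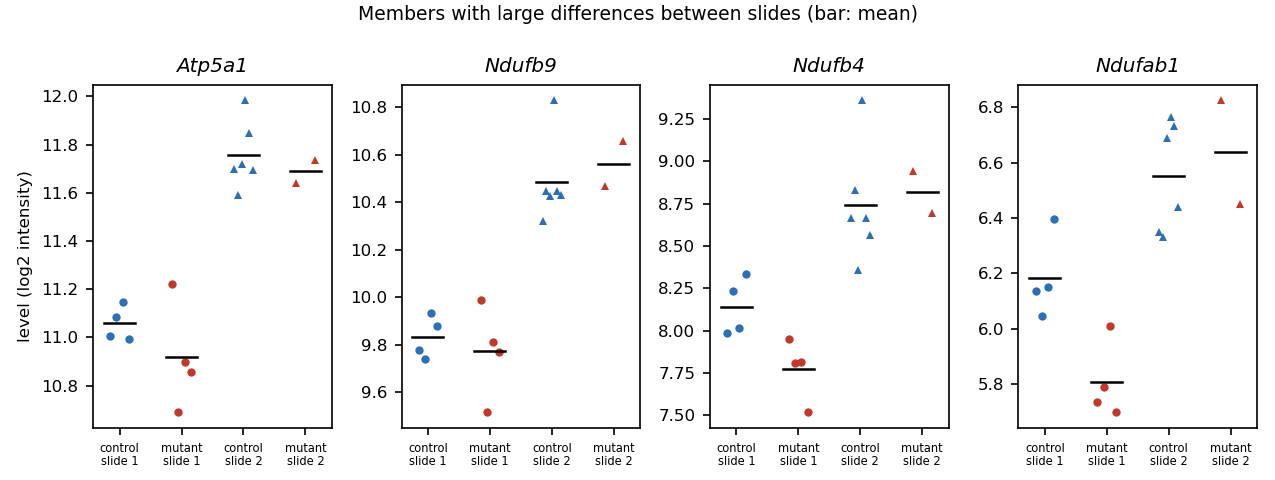
Log2 intensity (y axis) of Atp5a1, Ndufb9, Ndufb4 and Ndufab1 by slide and genotype (x axis), with controls in blue, mutants in red, circles for slide 1, triangles for slide 2 and bars for means. In each panel both genotypes sit higher on slide 2 than on slide 1, by 0.37 to 0.70 in controls and by 0.77 to 1.05 in mutants.

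The median change of the members lay below 0 on each slide. It was -0.075 within slide 1, -0.066 within slide 2 and -0.085 with the slide as a block. On both slides 41 of the 74 members had a change below 0, against 32.9% of all genes. The sign was the same on both slides for 55 of the 74 members, against 75.5% of all genes. All 12 called members kept theirs, but they had been called from these same arrays, so this is a description. Of the 12, 8 stayed called with the slide as a block. That fit called 9 of the 74 members, against 30.3% of all genes. Within slide 1 and slide 2 alone 3 and 1 members were called lower, against 18.1% and 7.72% of all genes called in either direction. The calls within slide 1 were Ndufa1, Ndufv3 and Ndufab1. The fit with the replicate number as a block left out controls 7 to 10, which have no mutant of the same number. In it 9 members and 30.7% of all genes were called.

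Of the 12 calls, 7 held in every fit that left out 1 array: Ndufa1, Ndufs4, Ndufv3, Ndufa8, Cox7a2, Atp5o and Atp5g1. The other 5 were each lost in some of the 16 such fits, with the sign kept. Ndufa12 lost its call without mutant 1, 4 or 6 or control 6, with adjusted p up to 0.0801 and changes from -0.24 to -0.17 over the 16 fits. Ndufs5-ps lost it in 10 fits, without mutant 1, 2 or 4 or control 1, 2, 4, 5, 6, 7 or 9 (-0.22 to -0.17, adjusted p up to 0.0987). Cox6a1 lost it in 10, without mutant 1, 3, 4 or 6 or control 2, 3, 4, 5, 7 or 9 (-0.36 to -0.21, up to 0.109). Cox6c lost it in 12, without mutant 2, 3, 4 or 6 or any of controls 2 and 4 to 10 (-0.22 to -0.14, up to 0.140). Cox4i2 lost it in 10, without mutant 1, 2, 3 or 5 or control 4, 5, 6, 7, 9 or 10 (0.31 to 0.47, up to 0.121). Each of these 5 calls thus depended on which arrays were in the fit.

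Genes of neighbouring mitochondrial functions were read for comparison. Of complex II, which joins the chain to the citric acid cycle, 3 genes were tested and 0 called by limma; 1 had an unadjusted p under 0.05, Sdhb, at -0.20 (adjusted p = 0.0642). Of 13 genes on a list of electron carriers and other mitochondrial proteins 0 were called and 2 had an unadjusted p under 0.05. Slc25a3, Slc25a5 and Ppa2 on it are neither electron carriers nor chain subunits. The changes of the 13 were below 0 for 9 and above 0 for 4. The largest falls were -0.68 for Slc25a3, a phosphate transporter, and -0.42 for Higd1a, neither called. Cytochrome c, Cycs, had a change of -0.24 (adjusted p = 0.309, limma). Of 26 further assembly factors 4 were called lower and 1 higher. Cox17, the copper chaperone of complex IV, lay between 11.83 and 12.05 in controls and between 11.44 and 11.74 in mutants, with no overlap and a change of -0.37 (SE 0.061, adjusted p = 0.000159, limma). Cox18, which inserts a mitochondrial-encoded subunit into the membrane, changed by -0.22 (adjusted p = 0.0266, limma), and Uqcc1, an assembly factor of complex III, by -0.16 (adjusted p = 0.0412, limma).

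Of the mitochondrial ribosome, which makes the mitochondrial-encoded subunits, 8 of 71 genes were called lower and 1 higher, with a median change of -0.035. The 3 with the smallest adjusted p were Mrps6 at -0.49, Mrpl53 at -0.37 and Mrps21 at -0.35. Of 19 import genes 2 were called lower, among them Timm17a of the inner membrane translocase at -0.29 and Timm9 at -0.26, and 2 higher. Of 15 citric acid cycle genes 2 were called lower, Ogdh and Mdh2, each at -0.23, and 1 higher, Suclg2 at 0.24. Read against 14.0% of all genes called lower and 15.9% higher, none of these lists exceeded the background share of rises, and only the 26 assembly factors, at 15.4%, exceeded that of falls; neither was tested.

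Among 14 regulators of mitochondrial biogenesis 1 was called higher and 1 lower. Gabpb1, the partner subunit of the ETS factor that binds respiratory gene promoters, had a change of -0.38 (SE 0.096, adjusted p = 0.00644, limma), with 5 mutants below every control. Polg2, an accessory subunit of the mitochondrial DNA polymerase, had a change of 0.39 (SE 0.096, adjusted p = 0.00562, limma). Ppargc1a, a coactivator of mitochondrial biogenesis, ran from 7.29 through 7.74 to 8.32 in controls and from 7.57 through 7.66 to 8.11 in mutants, with a 95% interval of -0.26 to 0.27. Of 18 genes on the glycolysis list 4 were called higher (22.2%, against 15.9% of all genes) and 2 lower. That list also held 2 glucose transporters, Slc2a1, called higher at 0.36, and Slc2a3. It held Pigq too, which is not a glycolysis gene and entered through the shared name Gpi1, at 0.13. The 3 listed genes with the smallest adjusted p were Pfkl, the liver form of phosphofructokinase, at 0.40, Eno2, the neuronal form of enolase, at -0.83, and Pfkp, the platelet form of phosphofructokinase, at -0.98. Neuron markers moved with Eno2, with 3 of 5 tested called lower, against 14.0% of all genes. Hormone cell genes did so too, with all 10 tested called lower. The part of neurons or of hormone cells in the Eno2 change was not tested.

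**Figure D5:**
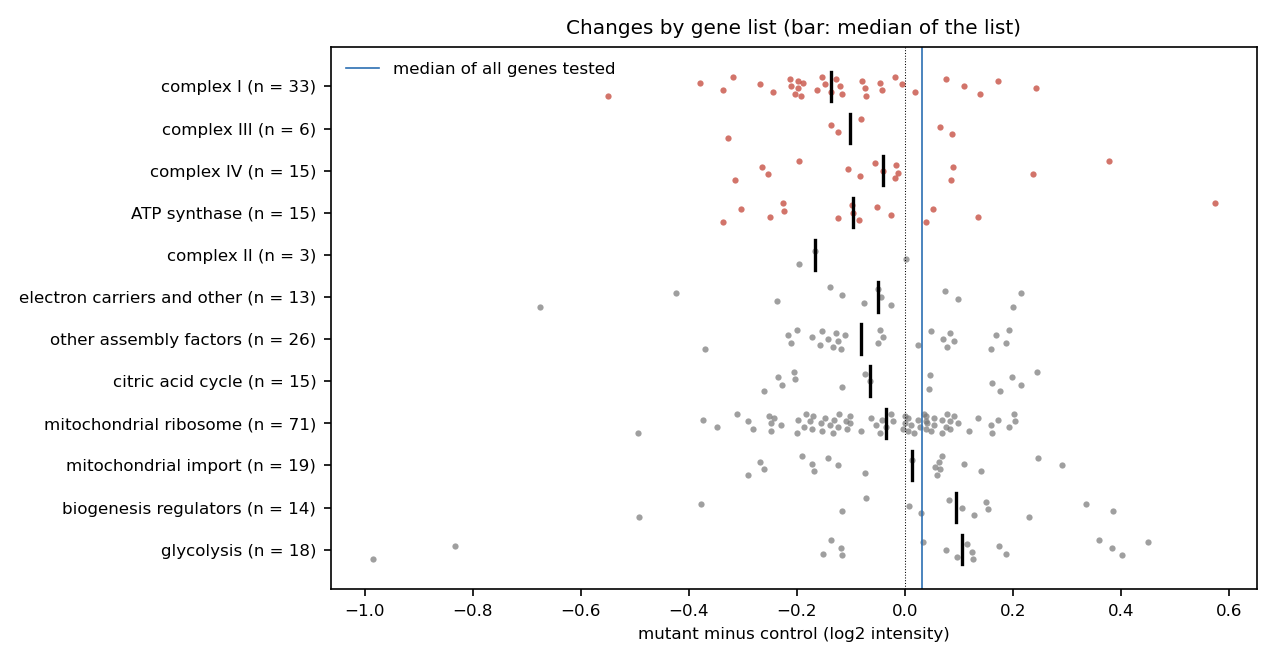
Changes of single genes, mutant minus control in log2 intensity (x axis), by gene list (y axis, with the number of genes tested); red points are the 4 complexes, grey points the other lists, black bars list medians and the blue line the median of all genes tested, 0.033. Medians run from -0.17 for complex II (3 genes) to 0.11 for the glycolysis list, which includes glucose transporters and Pigq. The 4 complexes lie between -0.14 and -0.041.

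The 8 symbols left out by the detection rule were Ndufs1, Uqcrfs1, Uqcrq, Cox6a2, Cox7b2, Cox8b, Cox8c and Atp5k. Their probes were above background on 0 of 16 arrays, while each of the 74 members was detected on all 16, so no gene lay near the threshold. Ndufs1, Uqcrfs1 and Uqcrq encode subunits that a working complex needs in every tissue, so a probe below background here does not show that the transcript was absent. Of the 74 members 63 had 1 probe above background and 11 had several; among these 11, Ndufv3 disagreed in call and Ndufv3 and Ndufaf5 in sign.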

How the data were processed

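RNA of 16 embryonic mouse pituitary samples, 6 mutants and 10 controls grouped by their titles, was measured on 1 Illumina bead array each. Per the file headers, the deposited raw file pairs every one of 25697 probes with a signal intensity and a detection p-value. The submitters' processing notes name GenomeStudio without a version. The intensity values of the deposited series matrix were read as background-subtracted and normalised by the authors (array medians near 37.1); no header states those steps, and it served as an alternative only, with values under 16 set to 16.

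Raw values were corrected with the nec function, which infers negative controls from the detection p-values (offset 16), quantile-normalised and log2-transformed (R 4.3.3 with limma 3.58.1 and data.table version 1.17.8). The 13813 probes detected at a p-value below 0.01 in 6 or more samples entered the fit, among them 799 without a symbol. Genotype was fitted with limma's lmFit and eBayes, p-values were adjusted by Benjamini-Hochberg over these probes, and the threshold was 0.05; every adjusted p comes from such a limma fit. The number of arrays limits the precision. Each gene was represented by its probe with the highest mean. Of all probes 23978 carried 1 symbol in the platform annotation, 0 several and 1719 none; all 74 members matched the GRCm38.p6 gene table of RefSeq by Entrez identifier, with 0 symbols changed. Promoter sequences are RefSeq's on the same assembly, and no genome or protein sequence was used. The fit was tested on simulated data.

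The members and gene lists were chosen with earlier results of these data known. By rule the text names, per complex, the 3 called members with the smallest adjusted p, the largest rise and fall, the complex IV isoforms with their partners, members whose probes disagree, and 3 members of each other list with a call. Ndufa12, Ndufs5-ps, Ndufa8, the assembly factors, the slide-shifted members and other genes outside it were named after their values were seen, as were the subunit groups and the pericyte list drawn up. Alternatives covered background correction, normalisation, the filter, the variance model, array weights, the slide, the replicate number, probe choice and single arrays left out; adjustment over 1 probe a gene was chosen after seeing the data.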

Additional observations from a re-analysis of the deposited data

Results flagged for a closer look

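Among the 158 sets of values screened, which pair a member or summary with a genotype, 10 held an array whose gap to its nearest neighbour was large for the range of its group (Dixon's criterion). That is 6.33%, and chance gives about 1 in 20. Of the 10, 6 were mutant arrays and 4 control arrays; mutant 4 accounted for 3 and mutant 5 for 2.

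Ndufs4 read 11.97 in mutant 2, against 12.27 to 12.42 in the other mutants; Ndufs4 kept its call in every fit that left out 1 array. Ndufa8 read 12.49 in control 1, against 12.17 to 12.31 in the other controls, and also kept its call. Ndufa5, a matrix arm accessory subunit, read 11.46 in mutant 4, against 11.12 to 11.21. Ndufb8 and Ndufa13, membrane arm accessory subunits, were high in mutant 5, at 13.47 against 13.16 to 13.24 and at 14.22 against 13.88 to 14.01. Ndufb6, of the same arm, read 12.66 in mutant 4, against 12.49 to 12.55.

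Cox6b1 read 13.46 in control 2, against 13.10 to 13.27 in the other controls. Atp5e, a small subunit of the central stalk, read 8.12 in mutant 4, against 9.17 to 9.78 in the other mutants. Atp5mpl, a small membrane subunit of ATP synthase, read 13.24 in control 7, against 13.39 to 13.55. Ndufaf3, an assembly factor, read 6.48 in control 9, against 6.97 to 7.52.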

How the results depend on the processing

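The 12 called members kept their direction under every alternative run. The cause of each shift below was not tested. The value for all members was 11 called lower, 1 called higher and a median change of -0.084. Median scaling gave 7 lower, 0 higher and a median of -0.13, with 1 lower and 0 higher in complex IV and 1 lower in ATP synthase. Cyclic loess, the deposited series matrix values and no filter each gave 0 higher, in all members and in complex IV. Cyclic loess, no background correction, an offset of 50, eBayes with trend and robust, and array weights each gave 1 lower in complex III, which was Uqcrb. The variance model gave 2 higher and array weights 3, each with 1 in complex I. With the slide as a block, complex IV had 0 higher and 1 lower and ATP synthase 1 higher. Slide 1 alone gave 3 lower and 0 higher, all 3 in complex I, and slide 2 alone 1 lower and 0 higher, in complex I; complex IV then had 0 higher and 0 lower and ATP synthase 0 lower. Leaving out 1 array gave 8 to 14 lower, 0 to 2 higher and a median from -0.10 to -0.068; lower calls ran from 4 to 8 in complex I, 0 to 1 in complex III, 1 to 3 in complex IV and 2 to 3 in ATP synthase, and higher calls from 0 to 1 in complex I, complex IV and ATP synthase and 0 in complex III. The replicate numbers were tested as pairs: deviations of same-numbered samples correlated between 0.040 and 0.48, 5 of 6 above 0.1, and 5 of 6 mutants matched their own number best, a hint from the data and not from the design. Same-numbered samples also shared a slide, and slide differences were not removed from these deviations. Pairing and slide were thus not told apart. The fit with that replicate block also took up the slide and left out controls 7 to 10, so the block, the slide and the smaller set of controls changed together. In it 7 members were called lower and 2 higher, with 0 lower in complex IV and 1 lower and 1 higher in ATP synthase. Atp5g2 was then called (0.72, adjusted p = 0.000132, limma), and 6 of the 12 calls remained; the adjusted p was 0.0596 for Cox7a2 and 0.0615 for Atp5g1. Scaling moved the median of all genes by less than 0.1. The dim members Cox4i2, Ndufab1 and Ndufb11 had SEs of 0.14, 0.16 and 0.14, against a median of 0.080 over members. Dim Atp5o had 0.073, however, and the brighter Atp5g2 0.24. The part of brightness in the precision was not tested.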
